A study of Mus musculus with 1049 samples.

Results

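The adipogenic and lipid storage program was followed in single fibroblasts of mouse skin as a list of 36 genes, taken by name from the 51777 genes that the count tables of all plates had in common. It held 7 transcription factors of fat cell formation, 7 genes of lipid uptake and fatty acid activation, 10 of fatty acid and triglyceride synthesis, 5 of lipid droplet coats, 3 of lipolysis and 4 secreted products of fat cells. Of the 36, 30 had enough reads to be tested between ages, Gpam had reads but too few for a test, and 5 had 0 reads in every cell analysed.

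Fibroblasts came from the skin of C57Bl/6 mice of 3 ages: newborn (1.5 or 2.5 days), young (2 months) and old (18 months). No allele, drug or diet other than standard chow distinguished the groups. Anagen skin and subdermis had been removed before digestion, and cells were sorted with antibodies to blood, mast, epithelial and endothelial antigens and to CD34 and PDGFRα. The marker CD24 was not used to remove cells in this sort. How far fibroblasts with preadipocyte features passed the other steps was not tested. Each cell was amplified in its own well with Smart-seq2, a full-length method without molecular identifiers, so reads are not independent molecules. After quality filters 735 cells remained, namely 158 and 91 newborn, 142 and 104 young, and 126 and 114 old ones in experiments 1 and 2. Reads of the cells of 1 age and experiment were added into 6 sums, each of 119682449 to 195324769 reads (n = 2 per age). Only experiments are named in the labels, not mice, so a p-value measures the spread between these 2 experiments, which may be technical.

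Fat cells form when mesenchymal progenitors switch on a chain of transcription factors: C/EBPβ and C/EBPδ come first and act on the genes of PPARγ and C/EBPα, which then drive the genes of fat storage. A fat cell frees fatty acids from blood lipids with lipoprotein lipase, takes them up with CD36, carries them with FABP4, builds triglyceride from them, and coats the resulting droplet with perilipins. Lipases return the fatty acids in fasting. In the skin, adipocytes lie beneath the reticular dermis and arise from fibroblast progenitors of the dermis. Dlk1, a membrane protein of preadipocytes, marks the lower newborn dermis.

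Promoter sequences are given for 3 members on which the results below turn. Pparg encodes the master regulator of adipogenesis, Cd36 a fatty acid receptor read in newborn cells alone, and Plin2 a droplet coat protein read at every age. Each line holds the 250 bases before a RefSeq start, 5′ to 3′ in the direction of the gene. The build is GRCm38.p6, and capitals mark the motif matches named beneath. The windows lie at chr6:115421816-115422065 (plus strand, the third of 3 Pparg starts), chr5:17835897-17836146 (minus strand) and chr4:86670060-86670309 (minus strand).
Pparg: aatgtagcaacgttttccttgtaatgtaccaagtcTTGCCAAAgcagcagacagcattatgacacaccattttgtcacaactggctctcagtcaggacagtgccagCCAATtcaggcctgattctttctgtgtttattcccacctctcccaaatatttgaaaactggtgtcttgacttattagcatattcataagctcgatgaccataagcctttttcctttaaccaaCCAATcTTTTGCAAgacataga
Cd36: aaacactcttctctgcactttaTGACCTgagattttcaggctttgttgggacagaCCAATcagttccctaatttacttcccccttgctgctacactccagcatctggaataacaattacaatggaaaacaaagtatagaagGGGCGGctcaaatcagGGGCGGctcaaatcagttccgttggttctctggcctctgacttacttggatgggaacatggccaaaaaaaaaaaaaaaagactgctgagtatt
Plin2: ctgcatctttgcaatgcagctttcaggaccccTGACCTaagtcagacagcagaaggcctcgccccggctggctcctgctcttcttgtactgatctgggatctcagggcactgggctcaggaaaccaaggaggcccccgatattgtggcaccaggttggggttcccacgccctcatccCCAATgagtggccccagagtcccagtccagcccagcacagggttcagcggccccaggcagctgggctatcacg

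Both strands were searched for TATAAA, the TATA box, for the CCAAT box, for the E box with the letters CACGTG and for the sterol response element with the letters TCACNCCAC. They were also searched for the C/EBP motif with the letters TTGCNNAA, for AGGTCA, the repeat unit of nuclear receptor sites including those of PPARγ, and for the GC box with the letters GGGCGG. The Pparg window held the C/EBP motif 215 and 16 bases before the start and the CCAAT box at 144 and 22. The Cd36 window held AGGTCA at 228, the CCAAT box at 195 and the GC box at 109 and 93, and the Plin2 window AGGTCA at 218 and the CCAAT box at 73. No match of one motif overlapped a match of another in these windows. Of 32851 mouse promoter windows of this length, 9.56% held the C/EBP motif, 14.0% AGGTCA, 33.9% the CCAAT box, 32.7% the GC box, 12.4% the TATA box, 6.02% the E box and 1.05% the sterol element. Of 38 windows of the 27 members found in the table, 5 held the C/EBP motif (Cidec, Lep, Plin1, Pparg, Zfp423), 8 AGGTCA (Acly, Cd36, Gpam, Lpin1, Plin2, Pparg, Zfp423), 12 the CCAAT box, 18 the GC box, 2 the TATA box, 2 the E box and 1 the sterol element. A match describes letters and is no evidence of binding. Cebpd, Fabp4, Fabp5, Lpl, Dgat1, Dgat2, Scd1, Scd2 and Angptl4 had no entry.

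Col1a1, Col1a2, Dcn and Lum each had reads in 726 or more of the 735 cells, and Pdgfra in 242. Of 10 markers of mature adipocytes outside the list, 6 (Adrb3, Aqp7, Adig, Pck1, Ucp1, Thrsp) had 0 reads in every cell, and the 10 together summed to 6.68 to 23.2 CPM (reads of a gene per 1000000 reads of the sum). Trarg1 made up most of each sum's value, and in newborn experiment 2 Cidea, a droplet protein of fat cells read in 1 cell, added 2.65 of 7.25 CPM. The 8 macrophage markers summed to 2.09 and 0 CPM in newborn and 11.5 to 170 in adult sums. Ptprc was at 0, and Csf1r, read in 53 cells, reached 160 CPM in young experiment 1. The 8 endothelial markers summed to 33.8 and 6.40 CPM in newborn and 44.5 to 82.0 in adult sums. Cdh5 was at 0, and Plvap, read in 149 cells, was at 12.1 and 5.65 CPM in newborn and 39.7 to 76.7 in adult sums. Kdr was at 0 in newborn and 3.19 to 13.8 CPM in adult sums. Other endothelial markers had another order. Egfl7 was at 7.29 and 0.751 CPM in newborn and at most 0.0197 in adult sums, and Pecam1 at 11.4 and 0 against at most 1.60. The 6 mural markers summed to 14.7 to 163 CPM, with newborn and adult sums overlapping. Rgs5 was at 0, and the others differed in order. Acta2 was at 14.7 and 94.7 CPM in newborn and 0 to 10.8 in adult sums. Kcnj8, read in 70 cells, was at 0 and 4.90 CPM in newborn and 51.0 to 121 in adult sums. Abcc9 was at 0 and 1.18 CPM in newborn and 10.4 to 42.0 in adult sums. The part of such RNA in the members' levels was not tested. The 6 keratinocyte markers summed to 18.9 to 72.4 CPM, with Krt10 at 22.4 and 15.8 in newborn and 43.6 to 59.9 in adult sums. The other 5, Krt5, Krt14, Krt1, Krt15 and Epcam, summed to 0 to 21.6 CPM. They were highest in newborn experiment 1 and had 0 reads in young sums, while Krt14 was at 11.1 CPM in old experiment 1. Markers of sebocytes, the lipid-making cells of the skin's oil glands, moved with age too. The 6 together summed to 128 and 122 CPM in newborn but 1334 to 1922 CPM in adult sums. Nearly all of this was Mgst1, a glutathione transferase read in 526 of the 735 cells, which was called in both adult ages against newborn (edgeR adjusted p = 0.0105 for young and 0.0103 for old). The other 5, Mc5r, Scd3, Elovl3, Awat2 and Dgat2l6, summed to 0.00484 to 4.36 CPM, and the part of this signal in the members' levels was not tested. After thinning, 26 of the 735 cells had reads of at least 2 markers of another type, 10 of them in young experiment 2. With these cells left out, the count of members called between ages was 0 in each comparison, as with them. Since no member was called either way, this count cannot show whether RNA of other cell types bears on the members' levels.

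No member passed the threshold of the test between any pair of ages (edgeR quasi-likelihood test, Benjamini-Hochberg adjusted p below 0.05 over 16684 genes). Among all genes tested, 0.779% were called between young and newborn (130 genes), 0% between old and young, and 0.935% between old and newborn (156 genes). Fitted with the experiment as a replicate block, those counts were 25, 0 and 51. At an unadjusted p below 0.05 stood 4 members between young and newborn, 2 between old and young and 9 between old and newborn, against 13.3%, 4.85% and 15.2% of all genes. DESeq2 called 4, 3 and 9 members in the same order (14.3%, 6.28% and 17.1% of all genes), and limma on the mean log value per cell called 3, 0 and 2 (19.3%, 0.115% and 26.1% of the 6970 genes it tested). Restricted to the 6970 genes read in 10% of the cells of an age or more, edgeR called 1, 0 and 1 members (7.06%, 0.129% and 7.89% of those genes). These members are named beside their values. The comparisons share their sums, since each age enters 2 of them.

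The 2 sums of an age lay entirely on one side of those of the other for 16 members between young and newborn (8 higher and 8 lower in young), 10 between old and young (3 higher, 7 lower in old) and 19 between old and newborn (9 higher, 10 lower in old). Of all genes the same held for 47.2% (22.1% higher, 25.1% lower), 30.9% (15% higher, 15.9% lower) and 47.3% (21.6% higher, 25.7% lower). The median log2 fold change of the 30 tested members was 0.34, 0 and -0.02, and that of all genes was -0.07, 0 and -0.08. In sums of cells, fewer cells carrying a gene and less RNA in each cannot be told apart, so the share of cells with a read is given beside the level of each widely read member. For these shares each cell was thinned to 100000 reads, and intervals are 95% exact binomial (Clopper-Pearson) intervals that cover counting error only.

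**Figure D1:**
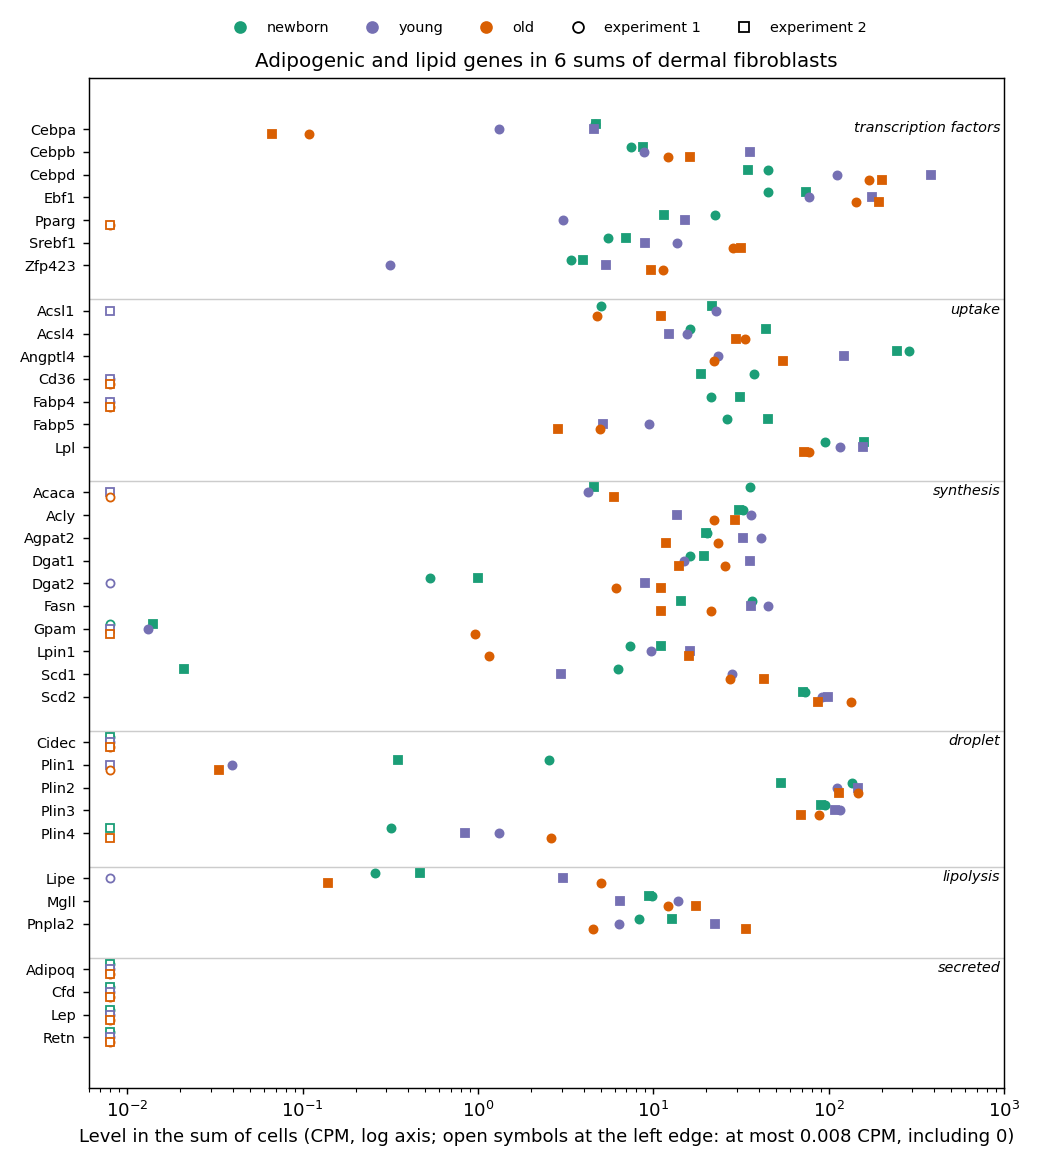
Level of each of the 36 members in the 6 sums, in CPM on a log axis, ordered by role; color gives the age and symbol shape the experiment. Open symbols at the left edge stand at or under 0.008 CPM, 0 included. Pparg lacks a measured level in both old sums, Cd36 and Fabp4 in all young and old sums, and Cidec and the 4 secreted products in every sum.

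Cebpb, Cebpd, Ebf1 and Srebf1 had higher levels in both adult ages than in newborn sums, none of them past the edgeR threshold, and Pparg and Cebpa were read in few cells. Cebpd, the early C/EBP factor, stood at 44.9 and 34.4 CPM in newborn, against 111 and 381 in young, and 170.2 and 201 in old sums. Neither adult age overlapped newborn, while the young sums enclosed the old ones. The young mean was 6.21-fold the newborn mean (log2 2.63 ± 0.63 SE, edgeR adjusted p = 0.208) and the old mean 4.68-fold (log2 2.23 ± 0.62, edgeR adjusted p = 0.216). Without young experiment 2 the young difference was 1.49 on the log2 scale (edgeR adjusted p = 0.358). DESeq2 called both differences (adjusted p = 5.6e-04 and 0.0051), and limma (adjusted p = 0.0332) and edgeR restricted to genes with reads in 10% of the cells of an age or more (adjusted p = 0.0401) called the young one.

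Cells with a Cebpd read made up 15.8% (interval 10.5 to 22.5) and 22.0% (14.0 to 31.9) of newborn cells. They made up 33.1% (25.4 to 41.5) and 63.5% (53.4 to 72.7) of young cells, and 32.5% (24.5 to 41.5) and 45.6% (36.3 to 55.2) of old ones. The level on each of 9 plates, every one of which held all 3 ages, gave the same order: 18.3 to 58.5 CPM in newborn, against 69.9 to 555 in young and 74.1 to 261 in old ones, with young and old above newborn on 9 of 9 plates. Plates of an experiment may share mice and are no replicates.

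Cebpb, its partner early in differentiation, was at 7.44 and 8.71 CPM in newborn, against 8.85 and 35.4 in young and 12.1 and 16.1 in old sums. Both adult ages lay above newborn without overlap, with edgeR adjusted p = 0.574 and 0.781. Young experiment 2 stood highest for both C/EBP genes, and 22.1% of its cells had a Cebpb read against 5.06% to 13.2% in the other sums.

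Ebf1, a factor of early mesenchymal and fat cell commitment, was read in 28.5% and 31.9% of newborn cells, against 38.7% and 52.9% of young and 43.7% and 60.5% of old ones. Its level was 45.2 and 73.8 CPM in newborn, against 77.5 and 177 in young and 144 and 193 in old sums. Old and newborn sums stood apart by a log2 difference of 1.50 ± 0.51 (SE; edgeR adjusted p = 0.263, DESeq2 adjusted p = 0.0416), and old ones were above newborn on 9 of 9 plates. The share of cells with an Ebf1 read depended on depth, since without thinning it was 44.3% and 41.8% in newborn and 58.7% and 73.7% in old ones.

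Srebf1, which encodes the sterol-regulated factor that drives lipid synthesis genes, had its highest levels in old sums: 5.53 and 7.01 CPM in newborn, against 13.7 and 9.0 in young and 28.4 and 31.5 in old. The 3 ages did not overlap. The old mean was 4.78-fold the newborn mean (log2 2.26 ± 0.65 SE, edgeR adjusted p = 0.221) and 2.64-fold the young mean (log2 1.40 ± 0.63, edgeR adjusted p = 0.910), and DESeq2 called both (adjusted p = 3.7e-06 and 0.0219). The mean log2 value per cell, which gives each cell equal weight, differed by 0.32 (limma adjusted p = 0.144) and 0.28 (limma adjusted p = 1), and neither was called. After thinning, newborn sums had a Srebf1 read in 5.06% and 5.49% of their cells, young sums in 5.63% and 8.65% and old sums in 7.94% and 10.5%, with overlapping intervals, and the old level was above the young on 6 and above the newborn on 7 of 9 plates. Levels of Fasn, Acaca and Acly, which its protein activates, are given below. Zfp423, a zinc-finger factor of committed preadipocytes, ranged from 0.315 to 11.4 CPM and was read in at most 7.69% of the thinned cells of a sum.

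Pparg stood at 22.4 and 11.4 CPM in newborn, against 3.06 and 15.2 in young, and had 0 reads in both old sums. It was carried by few cells: 10 of 249 newborn (4.02%), 2 of 246 young (0.813%) and 0 of 240 old ones, a count that allows up to 1.25%. In each young sum 1 cell held all Pparg reads, and in the newborn sums the leading cell held 48.1% and 54.7% of them. The young mean was 998 times a floor of 3 reads over both old sums (old against young, edgeR adjusted p = 0.906). The newborn mean was 1844 times that floor (old against newborn, edgeR adjusted p = 0.117). DESeq2 called both differences (adjusted p = 4.7e-09 and 4.5e-11). Such ratios take account of read counting only, not of which few cells were drawn, and set no lower bound on a difference. The 1.25% that the old count allows lies above the young share of 0.813%.

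Cebpa, its partner in terminal differentiation, was at 4.63 and 4.68 CPM in newborn, against 1.31 and 4.57 in young and 0.108 and 0.0668 in old sums. A read was found in 9 of 249 newborn, 9 of 246 young and 4 of 240 old ones. The old sums were lowest and overlapped neither other age (edgeR adjusted p = 0.910 against young and 0.230 against newborn), and DESeq2 called both differences (adjusted p = 7.2e-05 and 1.8e-06).

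Uptake genes included 2 that were read in newborn cells only and others that a larger share of cells carried.
Fabp4, the fatty acid carrier of fat cells, was at 21.4 and 31.3 CPM in newborn sums against 0 reads in all 4 adult sums. Cd36 was at 37.5 and 18.8 CPM in newborn sums and also at 0 in the adult ones. Fabp4 was read in 8 and Cd36 in 7 of 249 newborn cells (3.21% and 2.81%), and a count of 0 among 246 young and 240 old ones allows shares of up to 1.22% and 1.25%. In experiment 2, 1 newborn cell held 74.7% of the Fabp4 reads and another 89.8% of the Cd36 reads. Newborn means were 2514 times the young floor of 3 reads for Fabp4 and 2683 times for Cd36. Neither young difference passed in edgeR (adjusted p = 0.146 and 0.153), and DESeq2 called both (adjusted p = 4.7e-10 and 1.9e-09). Against the old floor the newborn means were 2877 and 3070 times as high. The old differences (edgeR adjusted p = 0.132 and 0.137) were again called by DESeq2 (adjusted p = 2.3e-10 and 9.4e-10). These ratios too take account of read counting only, not of which few cells were drawn.

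Fabp5, the epidermal and macrophage relative of FABP4, was more widely read in newborn cells, at 12.7% (interval 7.91 to 18.9) and 28.6% (19.6 to 39.0), than in young (2.11% and 1.92%) or old ones (0.794% and 0.877%). Its level was 26.4 and 45.3 CPM in newborn, against 9.45 and 5.16 in young and 4.98 and 2.87 in old sums. The ages did not overlap, and in each old sum a single cell held all reads. The newborn mean was 4.91-fold the young mean (log2 -2.29 ± 0.77 SE for young against newborn, edgeR adjusted p = 0.292) and 9.14-fold the old mean (log2 -3.19 ± 0.79, edgeR adjusted p = 0.187). DESeq2 (adjusted p = 0.0049 and 2.1e-05) and limma (adjusted p = 0.0073 and 0.0048) called both, and edgeR restricted to genes with reads in 10% of the cells of an age or more called the old one (adjusted p = 0.0383). Fabp5 entered the gene set of limma and of this restricted fit through newborn cells alone. Without thinning, 18.5% of newborn cells had a read, against 2.03% of young and 0.833% of old ones. The filter thus used the difference under test, and these calls are no separate evidence for it. Newborn cells stood above old ones on 9 of 9 plates and above young cells on 8.

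Angptl4, a secreted inhibitor of lipoprotein lipase that fasting and PPARs induce, was the most abundant member per kb of exon in newborn sums. Its level was 287 and 246 CPM in newborn, against 23.3 and 122 in young and 22.0 and 54.5 in old sums, so that newborn overlapped neither adult age. A read was found in 32.3% (25.1 to 40.2) and 45.1% (34.6 to 55.8) of newborn, 3.52% (1.15 to 8.03) and 25% (17.0 to 34.4) of young and 3.97% (1.30 to 9.02) and 10.5% (5.56 to 17.7) of old ones. The old mean was 6.96-fold below the newborn mean (log2 -2.80 ± 0.91 SE, edgeR adjusted p = 0.249) and the young mean 3.67-fold below it (log2 -1.88 ± 0.88, edgeR adjusted p = 0.462). A single cell held 76.4% of the reads in old experiment 1. Without old experiment 2 the old difference was -3.60 on the log2 scale, and without old experiment 1 it was -2.28. Without young experiment 2 the young difference was -3.51 on the log2 scale, and without young experiment 1 it was -1.12. DESeq2 called the old difference (adjusted p = 0.0099) and limma both (adjusted p = 0.0043 for old and 0.0158 for young). Old cells were below newborn cells on 9 of 9 plates and young cells on 8.

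Lpl, the lipase that ANGPTL4 inhibits, showed a different order. It stood at 94.8 and 158 CPM in newborn, against 115 and 157 in young and 77.2 and 72.7 in old sums, so that the old sums were lowest and young and newborn overlapped. The old mean was 1.81-fold below the young mean (log2 -0.86 ± 0.35 SE, unadjusted p = 0.056, edgeR adjusted p = 0.910). The share of cells with a read was 17.1% and 22.0% in newborn, against 19.0% and 31.7% in young and 13.5% and 14.9% in old ones, and the old level was below the young on 7 of 9 plates.

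The acyl-CoA synthetases, which activate fatty acids for storage or breakdown, differed in how often they were read. Acsl4, which prefers arachidonic acid, was at 16.1 and 44.1 CPM in newborn, against 15.6 and 12.3 in young and 33.4 and 29.7 in old sums, lowest in young, with 8.65% to 16.5% of cells carrying a read. Acsl1, the fat cell enzyme, ranged from 0 (young experiment 2) to 22.6 CPM (young experiment 1) and was read in at most 4.40% of the cells of a sum.

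**Figure D2:**
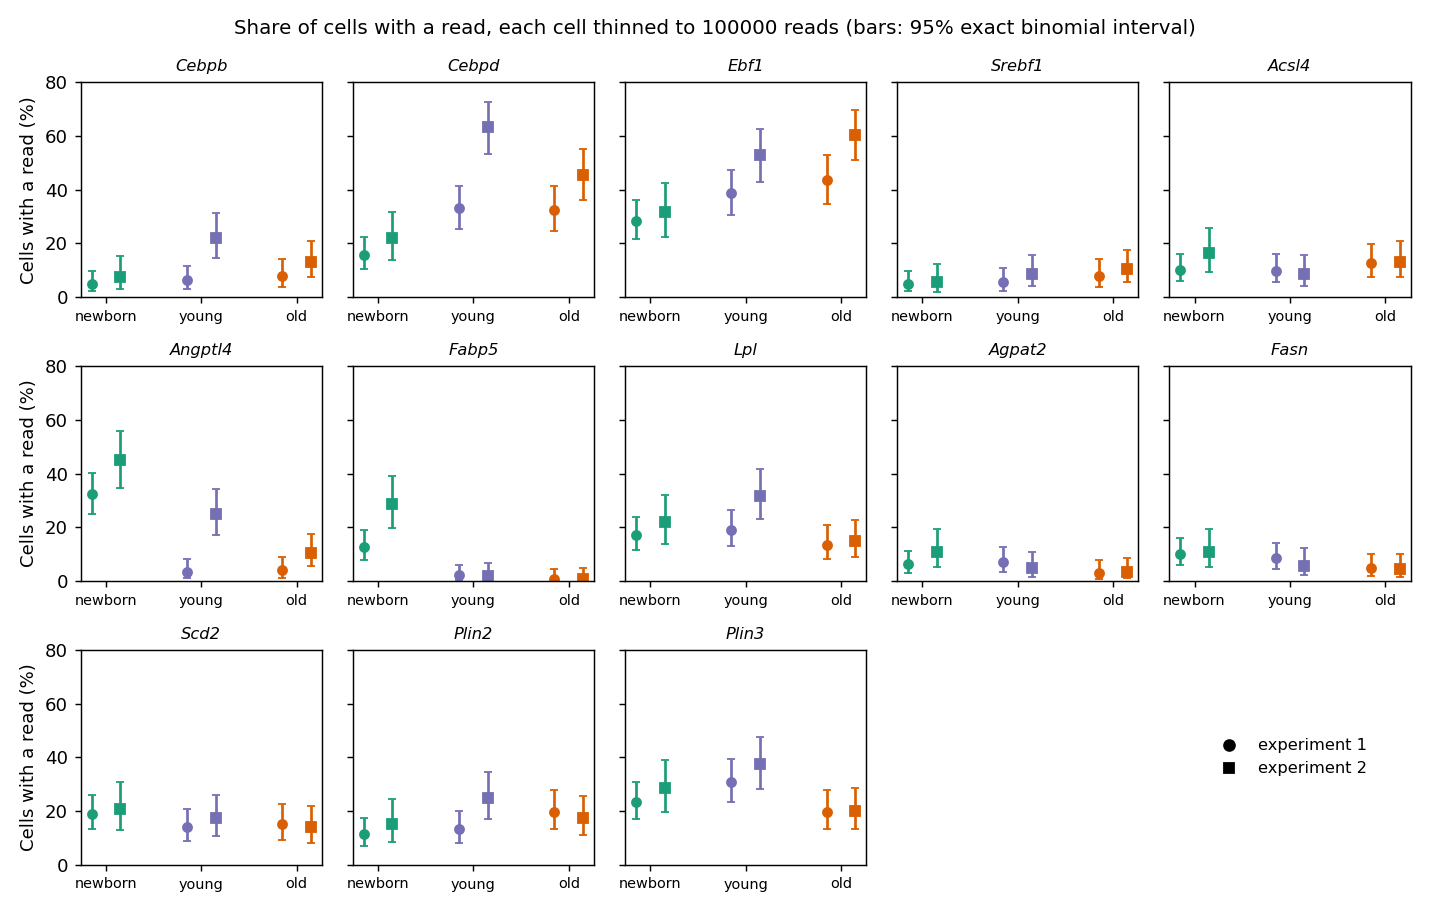
Percent of cells with a read of each of the 13 members that reached 10% in at least 1 sum, after thinning each cell to 100000 reads; circles are experiment 1 and squares experiment 2, and bars are 95% exact binomial intervals. Angptl4 and Fabp5 are highest in newborn cells, whereas Cebpd and Ebf1 are lowest there.

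Of the synthesis enzymes, Scd2, Fasn and Agpat2 reached the highest shares of thinned cells with a read in any single sum. Over all cells without thinning the order differed, since Acly was read in 58 cells, Fasn in 61 and Agpat2 in 43. Fasn, fatty acid synthase, was at 36.5 and 14.3 CPM in newborn, against 45.1 and 35.9 in young and 21.4 and 11 in old sums. The old sums were both below the young sums (log2 -1.32 ± 0.67 SE, edgeR adjusted p = 0.910), and on 8 of 9 plates the old level was the lower. Newborn sums overlapped both adult ages, and 4.39% to 11% of cells carried a read. Agpat2, which acylates lysophosphatidic acid and whose loss causes lipodystrophy, was at 20.1 and 19.8 CPM in newborn, against 41 and 32.4 in young and 23.3 and 11.7 in old sums. Young levels were highest and overlapped neither other age (edgeR adjusted p = 0.582 against newborn and 0.910 for old against young). The share of cells with a read had another order, with newborn sums at 6.33% and 11%, young sums at 7.04% and 4.81% and old sums at 3.17% and 3.51%, and on 9 plates the young share was above the newborn on 4 and below it on 5.

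Scd2, the stearoyl-CoA desaturase common outside fat and liver, was at 73.6 and 71.4 CPM in newborn, against 91.9 and 98.6 in young and 133 and 87.2 in old sums, and 14.0% to 20.9% of cells carried a read. Newborn sums were lowest, and the old sums enclosed the young ones. The log2 difference of young from newborn was 0.39 ± 0.30 (SE; edgeR adjusted p = 0.680), whereas limma on the mean log value per cell put it at -0.28, a fit in which the median of all genes also moved by -0.33. Scd1, the desaturase of fat and sebaceous gland, varied between 0.0211 CPM (newborn experiment 2) and 42.6 CPM (old experiment 2), with no more than 7.75% of cells carrying a read.

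Of the other synthesis genes, Acaca (acetyl-CoA carboxylase) spanned 0 to 35.4 CPM, Acly (ATP citrate lyase) 13.6 to 36.1, Dgat1 and Dgat2 (the enzymes of the last step to triglyceride) 14.0 to 35.4 and 0 to 11, and Lpin1 (phosphatidate phosphatase) 1.15 to 16.3. The mean level was higher in old than in newborn sums 11.1-fold for Scd1 (edgeR adjusted p = 0.581) and 11.2-fold for Dgat2 (edgeR adjusted p = 0.703), without overlap, on reads in 13 (Scd1) and 5 (Dgat2) of the 240 old cells, against 10 and 3 of the 249 newborn cells. For Acaca the young mean was 9.39-fold below the newborn mean, again without overlap (edgeR adjusted p = 0.839), with reads in 3 of 246 young and 18 of 249 newborn cells. No sum had more than 9.89% of its thinned cells with a read of any of these 5. Gpam, the first acyltransferase of the pathway, did not exceed 0.962 CPM in any sum and was read in 1 cell of each age.

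Among droplet coat genes 2 were widely read and 3 were not.
Plin2, the coat of small droplets in many cell types, was at 135 and 53.2 CPM in newborn, against 112 and 147 in young and 147 and 114 in old sums, and the 3 ages overlapped. Newborn sums had a Plin2 read in 11.4% and 15.4% of their cells, young sums in 13.4% and 25%, and old sums in 19.8% and 17.5%. In newborn experiment 1 a single cell held 44.9% of its reads. Plin3, which binds nascent droplets, was at 94.8 and 90.5 CPM in newborn, against 116 and 109 in young and 88.3 and 69.2 in old sums, with young highest and old lowest. The old mean was 1.43-fold below the young mean (log2 -0.52 ± 0.26 SE, edgeR adjusted p = 0.910). The share of cells with a Plin3 read was 31.0% and 37.5% in young against 19.8% and 20.2% in old ones, lower in old on 9 of 9 plates, while the level was lower on 6 plates and higher on 3. By contrast Plin1, the coat of the large droplet of fat cells, reached 2.55 CPM in newborn experiment 1 and was read in 4 of all 735 cells. Plin4 was read in 8 cells and did not exceed 2.62 CPM, and Cidec, which fuses droplets into one, had 0 reads.

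The lipases of stored fat were scarce at all ages. Pnpla2 (adipose triglyceride lipase) spanned 4.5 to 33.7 CPM, and in each age experiment 2 was the higher. Mgll (monoglyceride lipase) spanned 6.41 to 17.4 CPM and Lipe (hormone-sensitive lipase) 0 to 5.04 CPM. In no sum did more than 8.65% of thinned cells have a read of any of them. Adipoq, Retn, Cfd and Lep, which encode adiponectin, resistin, adipsin and leptin, had 0 reads in the 735 cells and in the 126 wells removed by the quality filters. A count of 0 in 735 cells allows a share of cells with a read of up to 0.408%.

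Levels of different genes were set side by side only per kb of exon, as CPM per kb averaged over the 2 sums of an age. In newborn, Angptl4 led with 75.2, followed by Plin2 (26.8), Plin3 (24.5), Scd2 (13.3), Lpl (12.1), Cebpd (10.6) and Fabp5 (10.0). In young, Cebpd led with 65.7, followed by Plin2 (36.8), Plin3 (29.7), Angptl4 (20.5) and Scd2 (17.4). In old, the order was Cebpd (49.5), Plin2 (37.1), Plin3 (20.8), Scd2 (20.2) and Ebf1 (17.3), with Angptl4 at 10.8. Pparg per kb was 5.73 in newborn and 3.10 in young. The sums of Angptl4 lay above those of the next gene in newborn, and those of Cebpd did so in old but not in young. Plin2 and Plin3 overlapped in newborn, as did Plin3, Scd2 and Ebf1, each with the next, in old.

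**Figure D3:**
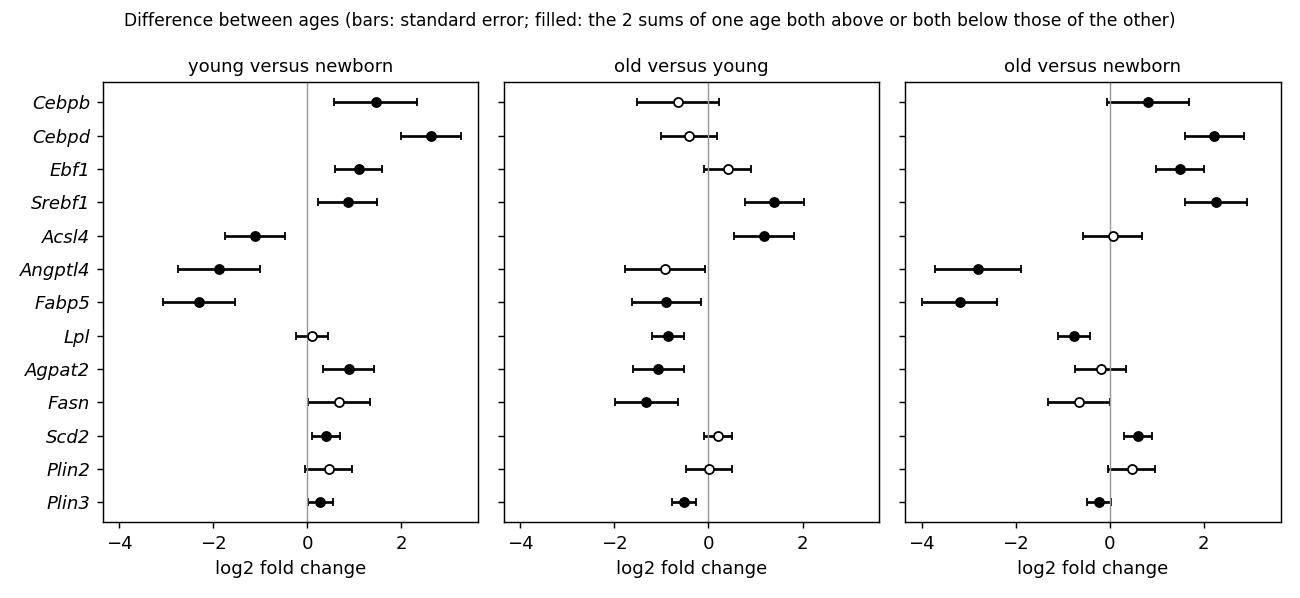
Log2 fold change, in the 3 comparisons, of the 13 members with the highest share of thinned cells with a read in any single sum, with standard errors. Filled points mark members for which the 2 sums of one age both lay above or both below those of the other. No point passed the adjusted threshold in edgeR. The largest differences are Cebpd (2.63) for young against newborn and Fabp5 (-3.19) for old against newborn.

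Genes around the program were read from lists of related function. Of 26 other regulators of adipogenesis 23 were tested, and 1 was called: Klf4, a zinc-finger factor that acts on the Cebpb gene, rose from 32.4 and 41.7 CPM in newborn to 252 and 285 in young and 338 and 268 in old sums (edgeR adjusted p = 0.0279 and 0.0223). The median log2 fold change of these regulators was 1.21 between young and newborn, 0.00 between old and young and 1.40 between old and newborn. Of 11 tested genes among 19 of uptake and transport 1 was called: Cav1, the caveolin that forms membrane pits rich in fat cells, fell from 2386 and 2651 CPM in newborn to 459 and 389 in young and 512 and 524 in old sums (edgeR adjusted p = 0.0152 and 0.0184).

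Of 20 progenitor markers 17 were tested and 1 was called, Cd34, which was 677 and 810 CPM in newborn and 3161 to 4684 in adult sums (edgeR adjusted p = 0.0394 for young and 0.0370 for old). An antibody to CD34 was part of the sort. No gene was called among 20 tested of 26 further synthesis genes, 13 of 17 further droplet and lipolysis genes or 19 of 22 fatty acid oxidation genes. Between old and young no gene of any of these lists was called, as of all genes. Among these uncalled lists, in that order, 3, 2 and 2 genes were under an unadjusted edgeR p of 0.05 between young and newborn. Between old and young 0, 1 and 1 were, and between old and newborn 2, 1 and 3. In the same order of comparisons it was 8, 1 and 8 of 23 other regulators. Uptake and transport genes had 3, 0 and 3 of 11, and progenitor markers 6, 1 and 8 of 17. Of all genes it was 13.3%, 4.85% and 15.2%.

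Single cells carried few members at a time. After thinning, a newborn cell had reads of 2.46 members on average in experiment 1 and 3.21 in experiment 2, a young cell 2.32 and 3.6, and an old cell 2.17 and 2.74. At each age the median cell carried 2 members in experiment 1 and 3 in experiment 2. Cells of experiment 2 also had more genes read, with medians of 2222 against 1794 in newborn, 2034 against 1641 in young and 1709 against 1506 in old ones, and the part of this in the members' count was not tested. Per 1000 genes read, cells carried 1.30 and 1.42 members in newborn, against 1.40 and 1.78 in young and 1.42 and 1.59 in old. The number of members in a cell went with the number of genes read in it, at Pearson r of 0.29 to 0.50 across the cells of a sum. At least 5 members were read in 13.3% and 22.0% of newborn, against 9.86% and 27.9% of young and 7.14% and 15.8% of old ones. The highest numbers were 11 members in a newborn cell of experiment 1 and 10 in a young cell of experiment 2, and no old cell had more than 7.

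**Figure D4:**
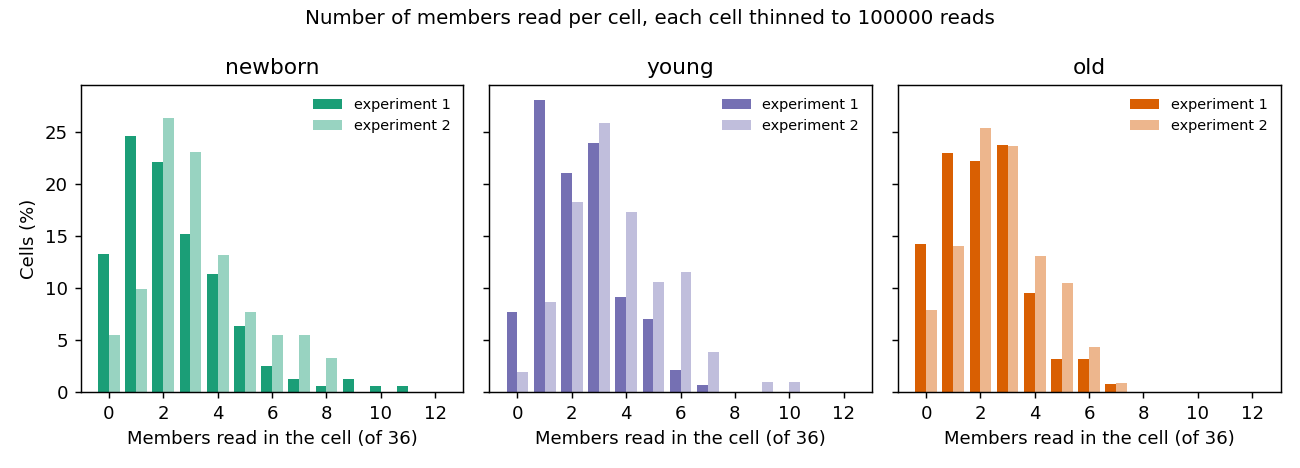
Percent of the cells of each sum by the number of members read in the cell, after thinning to 100000 reads; dark bars are experiment 1 and light bars experiment 2. Experiment 2 lies to the right of experiment 1 at every age, and newborn experiment 1 has a thin tail up to 11 members.

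Pairs of members were compared among the 9 that reached 20% of cells in a sum (Cebpb, Cebpd, Ebf1, Angptl4, Fabp5, Lpl, Plin2, Plin3 and Scd2), giving 36 pairs and 216 values over the 6 sums. Pearson r of log2(CPM + 1) across the cells of a sum ranged from -0.25 to 0.27 with a median of 0.04. These correlations used counts without thinning. Cells of a sum differed in depth (268509 to 2655587 reads in newborn experiment 1) and came from 4 or 5 plates, and the part of this in r was not tested. No pair reached 0.2 in all sums. Cebpb with Cebpd was the pair above 0 in all 6 sums, at 0.26 and 0.18 in newborn (158 and 91 cells), 0.07 and 0.19 in young (142 and 104) and 0.20 and 0.08 in old (126 and 114). Both were read in 17 of 104 cells of young experiment 2 (16.3%, where the product of the single shares is 14.0%) and in 4 of 158 cells of newborn experiment 1 (2.53%, product 0.801%). Lpl and its inhibitor Angptl4 were read together in 8 of 158 and 12 of 91 newborn cells (5.06% and 13.2%, products 5.52% and 9.90%). Correlations of this size in sparse counts are given as description only.

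Genes of the terminal program met in a handful of newborn cells. Pparg, Fabp4 and Cd36 were chosen for this description after their values had been seen. Of 249 newborn cells 17 carried at least 1 of them, 6 carried 2 or more and 2 carried all 3. Fabp4 and Cd36 shared 4 cells, Pparg shared 3 with each. After thinning, the 11 cells with Fabp4 or Cd36 had a median of 6 of the other 34 members. The other 238 newborn cells had a median of 2. The 11 cells also had more genes read after thinning, at medians of 2481 against 1967, a part that was not tested. All counts of cells with a read in this paragraph are without thinning. Lpl was read in 7 of the 11 (63.6%) and 40 of the 238 (16.8%), Plin2 in 4 (36.4%) and 28 (11.8%), and Cebpa in 3 (27.3%) and 6 (2.52%). The preadipocyte marker Dlk1, no member, was read in 7 of the 11 and 80 of the 238 (33.6%). Angptl4 was read in 6 of the 11 and 88 of the 238, and Plin3 at nearly equal shares, 27.3% and 26.5%.

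The cell with the most members, from experiment 1, had reads of 12 of them among its 986592 reads. Both are counts without thinning. Also without thinning, it had the most genes read of the 17, 4331, where the median of newborn experiment 1 was 2192.5. Of the mature adipocyte markers outside the list it had reads of 2. Whether this well held RNA of more than 1 cell was not tested. It held 2646 reads of Fabp4, 2700 of Cd36, 430 of Pparg, 158 of Cebpa, 526 of Plin1, 66 of Plin4, 1038 of Plin2 and 2612 of Lpl, and 0 of Adipoq. It also held 2522 reads of Col1a1 and 7660 of Dcn, 12 of Dlk1, and 100 of Plvap, an endothelial marker that 149 of the 735 cells carried. The 16 other cells were less complete: Plin1 and Plin4 were read in none of them, and Pparg stood with up to 2226 reads in cells without Fabp4 or Cd36. The cell with the most members was also the 1 of the 17 with a read of a macrophage marker. Endothelial markers were read in 5 of the 17 cells, in 4 of the 11 with Fabp4 or Cd36 (36.4%) and in 26 of the 238 with neither (10.9%); both genes are also known in capillary endothelium, and the part of such RNA was not tested. Each of the 17 had reads of Col1a1 and Dcn, which does not set them apart from other newborn cells. In experiments 1 and 2, Col1a1 was read in 158 and 91 newborn cells and Dcn in 157 and 91.

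**Figure D5:**
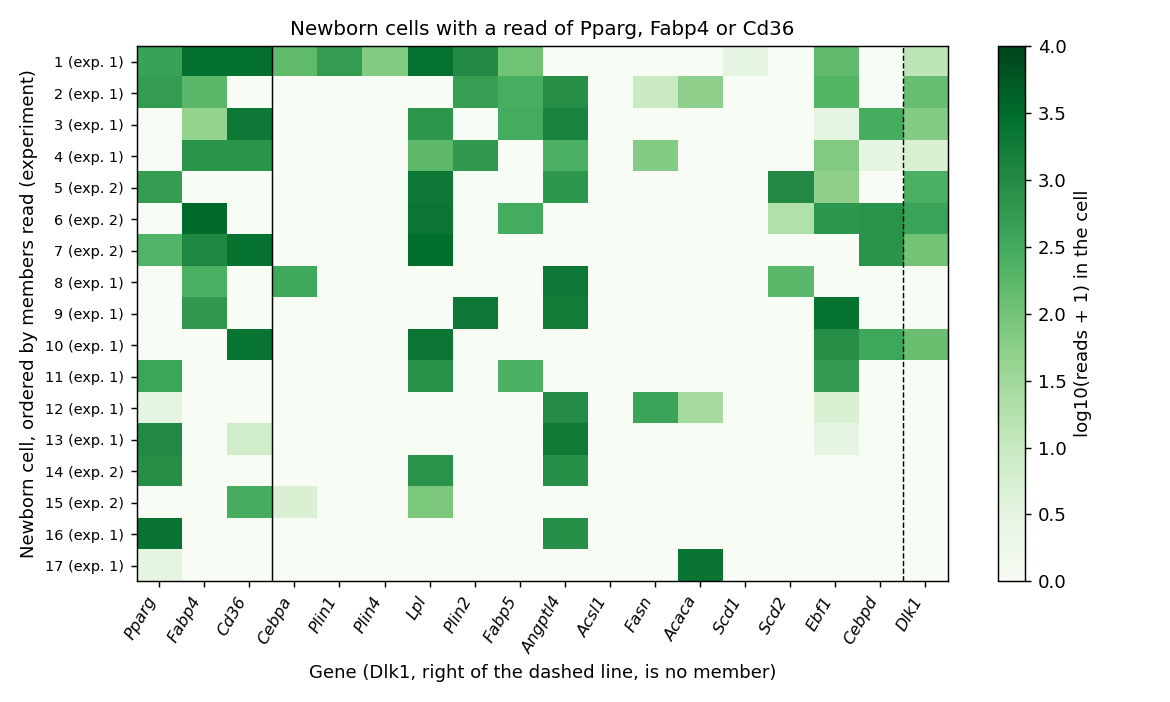
Reads of 17 members and of Dlk1, as log10(reads + 1), in the 17 newborn cells with a read of Pparg, Fabp4 or Cd36, ordered by the number of members read. The first cell holds all 3 together with Cebpa, Plin1 and Plin4, and cell 16 holds Pparg and Angptl4 and no other member.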

How the data were processed

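The authors deposited raw read counts per gene and well, 1 table per plate or run; the submitters' processing notes name GRCm38 and FastQC, and the choice of aligner, counting program and strand setting is not given in the sources used here. Between 73.8% and 76.6% of the nonzero counts of a plate were even. Of 1049 labelled columns 5 held no values. Plates sequenced in 2 runs (2 pairs, median well correlation 0.994; all other pairs at most 0.43) were added well by well (183 wells), leaving 861 wells on 9 plates. Cells had at least 50000 reads (kept cells 246349 to 4331293), 1000 genes and at most 25% mitochondrial reads. Spike-ins were left out. Symbols, positions and exon lengths came from GENCODE M21, promoters from RefSeq.

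Sums per age and experiment were fitted with edgeR 4.0.16 (R 4.3.3; TMM, filterByExpr, robust quasi-likelihood, age as the term, Benjamini-Hochberg), which gives a biological coefficient of variation of 1.13. CPM uses TMM library sizes. Errors are standard errors of log2 fold changes; ± is not used for n = 2 levels, which are printed singly. Alternatives used DESeq2 1.42.0, limma 3.58.1 (pseudocount 1) and others named in the closing section. Experiment numbers mark a batch shared by the ages in the labels; deviations of same-numbered sums correlated at -0.0026 to 0.0099 across 16684 genes. The fit without a block was the main one. Members and lists were chosen with earlier results of these data known. Members read in at least 10% of thinned cells of a sum, or called, are given in every sum; other genes only if called, and Pparg, Cebpa, Fabp4 and Cd36 were added after their values were seen.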

Additional observations from a re-analysis of the deposited data

How the results depend on the processing

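Members called stayed at 0 under median-ratio size factors, no low-count filter, thinned cells, a replicate block, fewer mitochondrial reads (at most 10%), leaving out cells with other markers, and leaving out each sum. DESeq2 called 4 (young against newborn), 3 (old against young) and 9 (old against newborn), limma 3 and 2 for the first and last, and a filter for genes in 10% of cells 1 and 1. All genes called in that order of comparisons numbered 2380, 1048 and 2850 by DESeq2, 1348, 8 and 1822 by limma, and 492, 9 and 550 under the 10% filter. They numbered 272 and 306 (first and last) with thinned cells, 25 and 51 with a replicate block, and 2 (old against young) without a filter. Leaving out 1 sum gave 0 to 42 and 0 to 47 genes. The single remaining sum was then assumed to vary like the other ages. The cause was not tested.

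Log2 fold changes of the 13 members that reached 10% of thinned cells in a sum turned sign in 22 of 579 refits. None of the turned values passed a threshold. The other 17 tested members were not part of this count. For old against young, leaving out 1 sum in turn gave -1.33 to 0.67 for Cebpb, -1.04 to 0.74 for Cebpd and -1.72 to 0.72 for Angptl4, each positive without young replicate 2. Leaving out 1 sum gave -0.20 to 0.22 for Plin2 (-0.17 without young replicate 1), -0.14 to 0.48 for Scd2 and -0.068 to 1.12 for Ebf1. A replicate block put Plin2 at -0.045, and limma Scd2 at -0.14. For young against newborn, leaving out 1 sum gave -0.22 to 0.52 for Lpl (-0.13 without young replicate 2) and -0.060 to 1.28 for Plin2, and limma gave -0.28 for Scd2 and -0.19 for Fasn. For old against newborn, leaving out 1 sum gave -0.050 to 1.29 for Plin2, -0.48 to 0.97 for Acsl4 (-0.0048 without old replicate 1), -1.20 to 0.18 for Fasn and -0.75 to 0.22 for Agpat2. There thinned cells put Acsl4 at -0.19, and limma put Acsl4 at -0.071 and Scd2 at -0.41. Limma moved the median of all genes by -0.33, -0.17 and -0.49. The mean number of members per old cell of experiment 2 was 3.15 without thinning. With 2 sums per age and reads of rare genes held by 1 or 2 cells, levels of rarely read members are imprecise at any read depth.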
